A study of Mus musculus with 4 samples.

Results

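The complement and acute-phase genes described here are C3, C4b, Cfb, Cd55, Cd59a, Lcn2, Saa3, Hp and Ptx3. They are 9 of the 38713 genes with a value in the expression table, found by symbol, and all 9 were present. RNA was sequenced in 4 cultured mouse mammary tumor cell lines of C57BL/6 background, with 1 library from each line. The JNK_WT lines 1 and 2 (p53-/-) came from parous females carrying Wap-Cre and Trp53 LoxP/LoxP. The JNK_KO lines 1 and 3 (p53-/- JNK-/-) came from females with these alleles and, in addition, Mapk8 LoxP/LoxP together with Mapk9 LoxP/LoxP, so that JNK1 and JNK2, the products of Mapk8 and Mapk9, could be lost as well. Loss of Trp53 and the Cre transgene were therefore shared by both groups, and no line with intact Trp53 entered the comparison. The Wap promoter is active in luminal cells of the mammary epithelium. The lines were grown from collagenase-dispersed tumors on collagen I coated plates and then on regular dishes, and no treatment was given.

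The complement system is a cascade of plasma proteins that tags surfaces for removal and can end in a pore in a cell membrane. Its classical, lectin and alternative routes meet at C3, and membrane-bound regulators restrain it on the body's own cells. Acute-phase proteins are secreted mostly by the liver during inflammation, and cytokines such as IL-6 and IL-1 induce them through STAT3, NF-kB and C/EBP transcription factors. Epithelia, the mammary gland among them, make several proteins of both families locally.

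The lines carried epithelial transcripts. All 9 epithelial markers were detected, and their summed level was 3338 to 3846 FPKM (mapped fragments scaled to the length of the transcript and to the fragments mapped in the library) in the JNK_WT lines and 1176 to 2765 FPKM in the JNK_KO lines. Krt5 was below 1 FPKM in every line but JNK_WT line 2. Of the 8 that passed the filter on low values used below, 7 had a lower mean log2(FPKM + 1) in JNK_KO. Groups were apart with JNK_KO lower for 2 of the 9 (Epcam and Krt8), beside 13.9% of all genes with a value above 0. Mapk8 was at 23.9 and 19.1 FPKM in JNK_WT lines 1 and 2 and at 4.30 and 4.27 FPKM in JNK_KO lines 1 and 3. Mapk9 was at 29.7 and 24.3 FPKM in the JNK_WT lines and at 12.6 and 8.66 FPKM in the JNK_KO lines, so both targeted transcripts were lower in the lines labelled as deleted. Trp53 RNA was still measured at 1.55 to 5.72 FPKM. The table holds FPKM without read counts. The steps between low values put the depth of the 4 libraries within a factor of 1.40 of each other.

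Markers of other cell types were examined because several of them also make these proteins. Some fibroblast markers moved with genotype. The 8 markers of that list summed to 1.71 to 11.9 FPKM in the JNK_WT lines and 107.9 to 176.9 FPKM in the JNK_KO lines. Of the 8, 3 (Pdgfra, Pdgfrb and Dcn) had non-overlapping groups, higher in JNK_KO, beside 18.4% of all genes with a value above 0. Dcn, at 79.7 and 161.7 FPKM, and Pdgfra, at 24.7 and 7.82 FPKM, made up most of the JNK_KO sums. The other 5 overlapped, and the median log2 difference over the 8 was 0.29 with all genes kept. Col1a2 was at 10.3 and 0.374 FPKM in JNK_WT lines 1 and 2 and at 0.698 and 2.56 FPKM in JNK_KO lines 1 and 3, a log2 difference of -0.68, and Col3a1 reached 1.33 FPKM in JNK_KO line 3. Col1a1 and Fap were below 1 FPKM and Lum was at or near 0 in every line. The part of the differences in fibroblast markers in the results below was not tested. The 8 macrophage markers summed to 4.01 to 22.0 FPKM in JNK_WT and 3.91 to 11.7 FPKM in JNK_KO, with Tyrobp at 0 and Ptprc near 0 throughout. Most of each sum was Cd68, at 19.95 and 3.15 FPKM in JNK_WT lines 1 and 2 and 2.65 and 8.43 FPKM in JNK_KO lines 1 and 3. Csf1r reached 1.82 FPKM in JNK_WT line 1, and Aif1 reached 1.91 FPKM in JNK_KO line 3. Groups were apart with JNK_KO higher for 1 of the 8 (Aif1) and lower for 1 (Fcer1g), beside 18.4% and 13.9% of all genes above 0. The 8 neutrophil markers summed to 3.88 to 4.27 FPKM in JNK_WT and 9.46 to 11.98 FPKM in JNK_KO, mostly from S100a8, whereas Elane was at 0 and S100a9 near 0 in every line. Adipocyte and endothelial markers were all below 1 FPKM. In these bulk samples, fewer cells of a type and less RNA per cell cannot be told apart.

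The upstream sequences of 4 genes are shown here because C3, Saa3, Ptx3 and Cd55 were each higher in both JNK_KO lines than in both JNK_WT lines, and because RefSeq gives each a start with bases before it that lie outside annotated exons of the gene. The windows are on the GRCm38.p6 build and run 5' to 3' on the gene's strand. They lie at chr17:57228137-57228386 for C3 (minus strand), chr7:46715701-46715926 for Saa3 (minus strand), chr3:66219637-66219886 for Ptx3 (plus strand) and chr1:130462745-130462994 for Cd55 (minus strand). Capitals mark matches to the C/EBP motif TTNNGNAA and, in Saa3, a match to the interferon-response motif GAAANNGAA that overlaps a C/EBP match.
C3: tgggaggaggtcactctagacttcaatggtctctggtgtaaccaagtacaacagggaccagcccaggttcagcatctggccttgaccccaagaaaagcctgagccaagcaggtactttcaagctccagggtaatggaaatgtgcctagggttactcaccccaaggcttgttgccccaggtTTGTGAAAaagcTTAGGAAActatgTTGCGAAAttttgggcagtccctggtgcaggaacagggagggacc
Saa3: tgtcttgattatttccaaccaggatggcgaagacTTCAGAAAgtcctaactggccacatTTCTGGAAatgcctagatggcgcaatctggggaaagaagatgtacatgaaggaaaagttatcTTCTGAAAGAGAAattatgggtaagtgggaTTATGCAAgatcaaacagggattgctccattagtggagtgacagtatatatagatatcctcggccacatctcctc
Ptx3: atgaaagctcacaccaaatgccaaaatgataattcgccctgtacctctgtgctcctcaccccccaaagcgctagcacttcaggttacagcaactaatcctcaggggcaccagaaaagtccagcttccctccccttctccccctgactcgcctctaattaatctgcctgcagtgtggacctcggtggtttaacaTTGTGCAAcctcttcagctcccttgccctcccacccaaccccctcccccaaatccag
Cd55: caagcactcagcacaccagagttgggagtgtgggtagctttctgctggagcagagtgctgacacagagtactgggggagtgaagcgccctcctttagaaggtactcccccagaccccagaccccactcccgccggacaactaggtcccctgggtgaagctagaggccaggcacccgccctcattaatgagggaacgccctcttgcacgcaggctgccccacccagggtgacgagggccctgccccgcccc

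The C3 window held 3 C/EBP matches within 70 bases of the start (TTGTGAAA, TTAGGAAA and TTGCGAAA). The Saa3 window held 4 such matches, at 216, 191, 129 and 99 bases before the RefSeq start, and the interferon-response match began 125 bases before it. The window of Saa3 is shown only to 25 bases before that start, where an annotated exon begins. The Ptx3 window held 1 C/EBP match, 57 bases before the start. Of 32851 RefSeq windows of 250 upstream bases, 36.8% held at least 1 C/EBP match on either strand, 2.61% held 3 or more and 0.591% held 4 or more. A single match was therefore common and the runs in C3 and Saa3 were less so. The interferon-response motif was in 7.13% of windows. The Cd55 window held no match to any motif searched, and that of Cd59a held 1 interferon-response match. The Lcn2 window held 1 C/EBP match, but all of it lies within annotated exons of Lcn2, so it is not shown and the match is in transcribed sequence. The NF-kB consensus (in 7.25% of all windows), the STAT motif TTCNNNGAA (7.02%) and the AP1 motif TGANTCA (6.75%) were searched on both strands as well, and their letters were not in the windows of these 6 genes. A match describes the letters only. C4b, Cfb and Hp were not matched to a window.

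In the comparison of genotypes, which asks how tumor cells without JNK differ from tumor cells that keep it, 7 of the 9 genes were higher in both JNK_KO lines than in both JNK_WT lines. These were C3, C4b, Cfb, Cd55, Saa3, Hp and Ptx3. Cd59a and Lcn2 overlapped between genotypes, and no member was lower in both JNK_KO lines. For reference, groups did not overlap with JNK_KO higher for 18.4% of the 25135 genes with a value above 0, and with JNK_KO lower for 13.9%. The members were chosen with earlier results of these data known, so the count only describes them. The separation differed widely between members, and the nearest lines of the 2 genotypes were 16.4-fold apart at Saa3 but 1.02-fold apart at Hp. With 2 lines against 2, the smallest p an exact two-sided permutation test can give is 0.333.

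**Figure D1:**
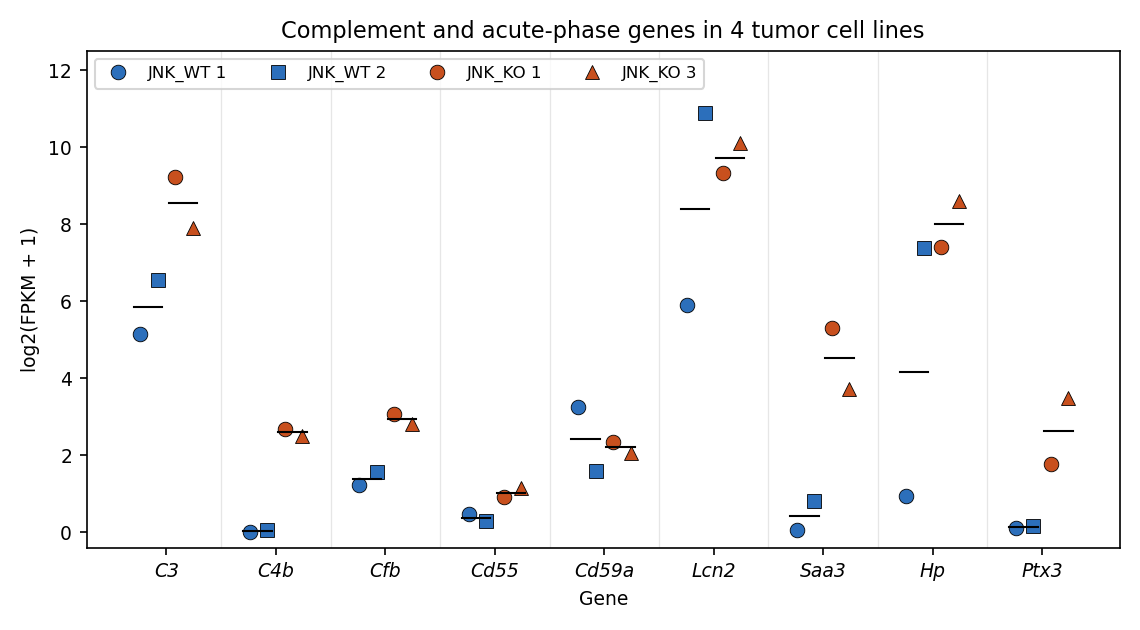
Level of each of the 9 genes (x axis) in the 4 lines as log2(FPKM + 1) on the y axis, with blue points for JNK_WT, orange points for JNK_KO, a marker for each line, and bars at the mean of the 2 lines. The groups were apart for 7 genes, only just so for Hp, and Lcn2 and Hp were far lower in JNK_WT line 1 than in the other 3 lines.

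C3 is the central protein of complement, cleaved by every route of activation. Its gene lies at chr17:57203970-57228136 on the minus strand. C3 was at 34.2 and 92.7 FPKM in JNK_WT lines 1 and 2 and at 592 and 238 FPKM in JNK_KO lines 1 and 3. The group means were 63.5 ± 41.4 FPKM and 415 ± 250.2 FPKM (SD, n = 2 lines each), a 6.54-fold difference. Both JNK_KO lines stood above both JNK_WT lines, and within each genotype the lines differed more than 2-fold. On the log2(FPKM + 1) scale the difference, JNK_KO minus JNK_WT, was 2.71 (SE 0.68, 95% interval 0.91 to 4.51). The limma test, fitted across all 12998 genes that passed a filter on low values, gave C3 an adjusted p of 0.440 (0.0128 unadjusted), so C3 did not pass.

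C4b encodes complement C4, which is cleaved in the classical and lectin routes and forms part of the enzyme that cleaves C3. The gene lies at chr17:34728380-34743882 on the minus strand. C4b was listed at 0 and at 0.0472 FPKM in JNK_WT lines 1 and 2 and was at 5.47 and 4.64 FPKM in JNK_KO lines 1 and 3. It was thus all but undetected in one genotype and at a low, similar level in both lines of the other (5.05 ± 0.588 FPKM, n = 2). The log2 difference was 2.56 (SE 0.30, 95% interval 1.76 to 3.36), with an unadjusted p of 0.000615 and a limma adjusted p of 0.160, the smallest adjusted p of any member. Its paralog C4a shares 41.9% of the 40-base words of the C4b transcript, the length of the reads, so that reads could be divided between them. C4a was listed at 0.0908, 0.133, 0.201 and 0.283 FPKM in JNK_WT 1, JNK_WT 2, JNK_KO 1 and JNK_KO 3.

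Cfb, complement factor B, supplies the protease of the alternative route, which amplifies C3 cleavage. It lies at chr17:34856374-34862518 on the minus strand, near C4b. Its level was 1.34 and 1.95 FPKM in JNK_WT lines 1 and 2 and 7.48 and 6.04 FPKM in JNK_KO lines 1 and 3. The lines of each genotype lay close together (1.65 ± 0.429 and 6.76 ± 1.02 FPKM, n = 2 each), and the means differed 4.10-fold. The log2 difference was 1.55 (SE 0.33, 95% interval 0.69 to 2.42), with an unadjusted p of 0.00658 and a limma adjusted p of 0.347. An annotated gene on the same strand, Gm20547, covers nearly all of Cfb and shares 81.5% of its 40-base words, so the value of Cfb depended on how reads were assigned. Gm20547 was listed at no more than 0.0711 FPKM in any line. The neighboring paralog C2, which serves the classical and lectin routes, was at 0.643 and 0.438 FPKM in JNK_WT and 0.419 and 0.487 FPKM in JNK_KO, with overlapping groups. C2 was thus below 1 FPKM in every line, and it shares 58.9% of its 40-base words with Gm20547, so its value depended on read assignment too.

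Cd55 and Cd59a encode regulators anchored in the cell membrane. CD55 speeds the decay of the enzymes that cleave C3, and CD59 blocks assembly of the membrane pore. Cd55, at chr1:130439027-130462744 on the minus strand, was at 0.397 and 0.218 FPKM in JNK_WT lines 1 and 2 and at 0.902 and 1.21 FPKM in JNK_KO lines 1 and 3. Both JNK_KO lines were higher, the means being 0.307 ± 0.127 and 1.05 ± 0.215 FPKM (n = 2 each). Only 1 line reached 1 FPKM, so Cd55 did not enter the test. Its paralog Cd55b, which shares most of the 18.0% of its 40-base words found elsewhere, was listed at 0 in every line, and the antisense gene Gm16083, which overlaps it, at no more than 0.0481 FPKM.

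Cd59a lies at chr2:104095801-104115354 on the plus strand. The JNK_WT lines 1 and 2 had 8.52 and 2.01 FPKM of Cd59a, against 4.13 and 3.18 FPKM in JNK_KO lines 1 and 3. Both JNK_KO values lay between the JNK_WT values. The log2 difference was -0.21 (SE 0.63, 95% interval -1.90 to 1.48, limma adjusted p = 0.999), and without JNK_WT line 1 it was 0.62. Cd59b, the other mouse CD59 gene, was the more abundant on this length-scaled measure at 61.3, 30.7, 77.8 and 35.4 FPKM in JNK_WT 1, JNK_WT 2, JNK_KO 1 and JNK_KO 3. Its log2 difference was 0.27, with a limma adjusted p of 0.999. Neither CD59 gene separated the genotypes.

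Saa3 encodes serum amyloid A3, the member of its family made mainly outside the liver and known to be produced by macrophages, adipose tissue and mammary epithelium. It lies at chr7:46711998-46715700 on the minus strand. Saa3 was at 0.0490 and 0.748 FPKM in JNK_WT lines 1 and 2 and at 38.5 and 12.3 FPKM in JNK_KO lines 1 and 3. The lower JNK_KO line was 16.4-fold above the higher JNK_WT line. The means were 0.399 ± 0.495 and 25.4 ± 18.6 FPKM (n = 2 each), and the log2 difference of 4.08 (SE 0.65, 95% interval 2.35 to 5.81) was the largest among the members. The unadjusted p was 0.00221 and the limma adjusted p was 0.234. The liver forms Saa1 and Saa2 were at most 0.0696 FPKM in the JNK_WT lines and between 1.10 and 2.17 FPKM in the JNK_KO lines, with limma adjusted p-values of 0.458 and 0.378. Saa1 and Saa2 are near-identical copies in part, and their separate values are uncertain.

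Ptx3, the long pentraxin, is a secreted pattern-recognition protein that binds the complement component C1q and factor H. It lies at chr3:66219910-66225805 on the plus strand, wholly inside Veph1, a gene of the opposite strand. Ptx3 was at 0.0776 and 0.115 FPKM in JNK_WT lines 1 and 2 and at 2.40 and 10.3 FPKM in JNK_KO lines 1 and 3. Its level was near 0 in both JNK_WT lines, and JNK_KO line 3 was 4.29-fold above JNK_KO line 1. The log2 difference was 2.50 (SE 0.65, 95% interval 0.77 to 4.22), with an unadjusted p of 0.0147 and a limma adjusted p of 0.452. The strandedness of the libraries is not given in the sources used here. Veph1 was listed at 0.556, 0.276, 0.240 and 0.172 FPKM in JNK_WT 1, JNK_WT 2, JNK_KO 1 and JNK_KO 3, and was lower in both JNK_KO lines.

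Lcn2 encodes lipocalin-2, which binds bacterial siderophores and so withholds iron from microbes. It lies at chr2:32384633-32388252 on the minus strand and was the most abundant member in every line. Lcn2 was at 59.1 and 1892 FPKM in JNK_WT lines 1 and 2 and at 642 and 1099.7 FPKM in JNK_KO lines 1 and 3. The JNK_WT lines held both the lowest and the highest value, 32.0-fold apart. The mean FPKM was 976 ± 1296 in JNK_WT and 871 ± 324 in JNK_KO (n = 2 each), so the means and the log2 difference of 1.32 (SE 1.70, 95% interval -3.20 to 5.84) had opposite directions. The limma adjusted p was 0.991. Without JNK_WT line 1 the log2 difference was -1.17, and without JNK_WT line 2 it was 3.81.

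Hp encodes haptoglobin, which binds free hemoglobin in plasma. It lies at chr8:109575128-109579172 on the minus strand. Hp was at 0.909 and 164.8 FPKM in JNK_WT lines 1 and 2 and at 167.6 and 390.4 FPKM in JNK_KO lines 1 and 3. JNK_WT line 1 stood 181-fold below JNK_WT line 2, whereas JNK_KO line 1 was only 1.02-fold above JNK_WT line 2. The log2 difference of 3.85 (SE 2.2, 95% interval -2.00 to 9.71, limma adjusted p = 0.850) therefore rested on JNK_WT line 1, without which it was 0.63.

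**Figure D2:**
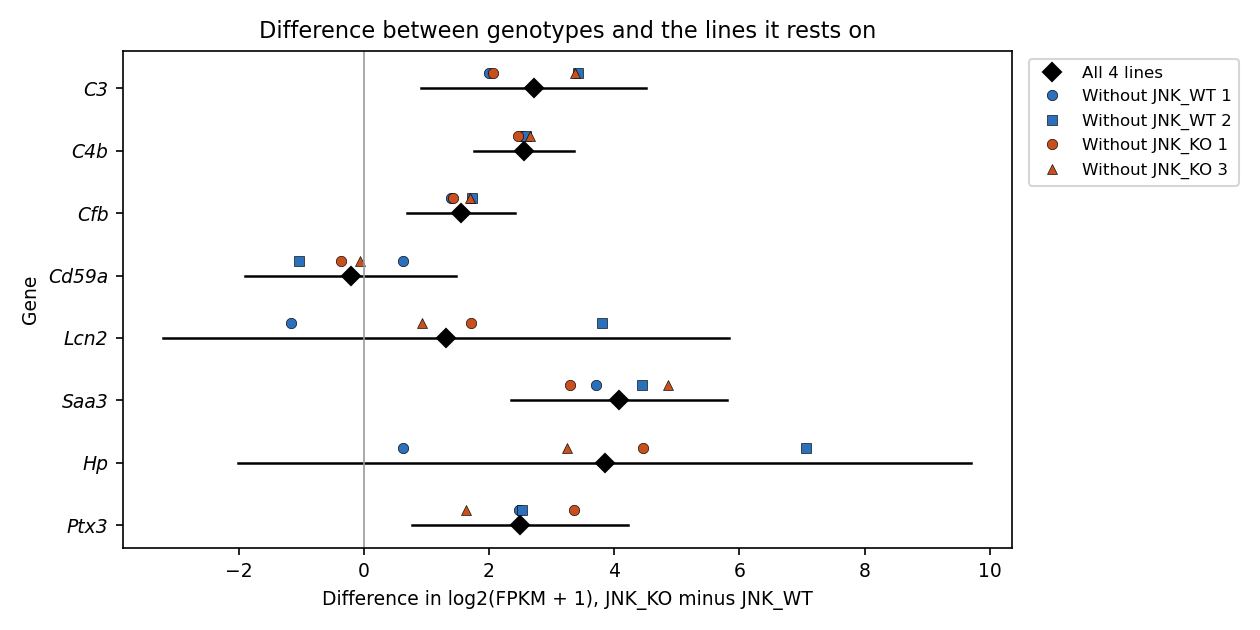
Difference in log2(FPKM + 1), JNK_KO minus JNK_WT, for the 8 genes that entered the test. Diamonds are the values over all 4 lines with 95% intervals, and the small symbols are the values with 1 line left out. C4b and Cfb stayed within a narrow range, whereas Lcn2 and Cd59a changed sign and Hp dropped to 0.63 without JNK_WT line 1.

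No member passed the test, which required a limma adjusted p below 0.05 and an absolute log2 difference above 0.75. The share of all 12998 tested genes that passed was 0.0%, and the smallest adjusted p of any gene was 0.0515. At an unadjusted p below 0.05, 5 of the 8 tested members were higher in JNK_KO (C3, C4b, Cfb, Saa3 and Ptx3) and 0 were lower. The corresponding shares of all tested genes were 4.75% higher and 2.89% lower. C4b, Saa3 and Ptx3 reached 1 FPKM only in the JNK_KO lines, as did 2.35% of tested genes, and had to differ in order to be tested, so their p-values are no separate support. Among the 5 members that did not depend on this, C3 and Cfb had an unadjusted p below 0.05 and Hp, Lcn2 and Cd59a did not. With all genes kept, the median log2 difference of the 9 members was 2.50, beside 0.01 for all genes. Because the members were chosen with earlier results of these data known, these counts and the median are descriptions only.

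The members spanned a wide range of levels within each line, on the length-scaled FPKM measure. In JNK_KO the order by mean was Lcn2, C3, Hp, Saa3, Cfb, Ptx3, C4b, Cd59a and Cd55. The neighbors C3 and Hp overlapped between lines, as did Cfb and Ptx3 and also Ptx3 and C4b. In JNK_WT the order by mean was Lcn2, Hp, C3, Cd59a, Cfb, Saa3, Cd55, Ptx3 and C4b. There Lcn2, Hp and C3 overlapped with their neighbors, since JNK_WT line 1 held little Hp and little Lcn2, and Saa3 overlapped with Cd55. C3 was above 75.5% and 91.6% of tested genes in JNK_WT lines 1 and 2 and above 99.1% and 97.2% in JNK_KO lines 1 and 3. Lcn2 was above 86.1% and 99.7% of tested genes in JNK_WT lines 1 and 2 and above 99.3% and 99.6% in JNK_KO lines 1 and 3. Hp was above 6.18% and 95.7% of tested genes in JNK_WT lines 1 and 2 and above 95.9% and 98.5% in JNK_KO lines 1 and 3. C3, Lcn2 and Hp thus ranked among the most abundant transcripts of both JNK_KO lines, as Lcn2 and Hp also did in JNK_WT line 2. In JNK_KO line 1, C3 and Lcn2 were at nearly equal levels.

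For Hp, Lcn2 and Cd59a the JNK_WT lines differed from each other more than the genotypes did. JNK_WT line 1 was the lower JNK_WT line for Hp and Lcn2 and the higher one for Cd59a. JNK_WT line 1 was at least 4-fold below each of the other 3 lines, with JNK_WT line 2 at 1 FPKM or more (a rule set after the values were seen), for Hp and Lcn2 among the members and for 2.68% of all tested genes. Among the other acute-phase genes, 8 of the 13 tested had this pattern, against 0 of 6 complement components and 0 of 5 complement regulators. The rule does not ask the remaining lines to be alike, and of these 8, Steap4, Il1rn and Cp were higher in both JNK_KO lines than in both JNK_WT lines. Steap4 was at 0.516 and 3.34 FPKM in JNK_WT lines 1 and 2 and at 17.7 and 19.8 FPKM in JNK_KO lines 1 and 3. Examples chosen after their values were seen are Slpi, a protease inhibitor, at 17.2, 449, 394 and 789 FPKM in JNK_WT 1, JNK_WT 2, JNK_KO 1 and JNK_KO 3, and Lbp, the lipopolysaccharide-binding protein, at 1.57, 72.0, 60.4 and 66.3 FPKM in the same order. Both had low levels in JNK_WT line 1 alone. Cp, chosen in the same way, encodes the copper-carrying ferroxidase ceruloplasmin. It was at 63.5, 443, 449 and 926 FPKM and followed the order of Hp.

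Lcn2 and Hp were higher in JNK_WT line 2 than in line 1 and higher in JNK_KO line 3 than in line 1. The basal keratin Krt14, also chosen after its values were seen, was at 7.34 and 443 FPKM in JNK_WT lines 1 and 2 and at 26.7 and 313 FPKM in JNK_KO lines 1 and 3, so the line with more Krt14 in each genotype was also the line with more Lcn2 and Hp. Of the other epithelial markers, Epcam, Cldn7 and Krt5 were also higher in JNK_WT line 2 and JNK_KO line 3 than in line 1 of each genotype. Krt8, Krt18, Krt19, Cdh1 and Cldn4 did not have this order in both genotypes. Krt5, also a basal keratin, was at 61.9 FPKM in JNK_WT line 2 but at 0.110 and 0.205 FPKM in JNK_KO lines 1 and 3. C3 and Saa3 did not share the order of Krt14. They were higher in JNK_WT line 2 than in line 1 but lower in JNK_KO line 3 than in line 1, where the log2 differences for C3 were 1.41 and -1.31. Ptx3 was nearly level between the JNK_WT lines and higher in JNK_KO line 3.

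**Figure D3:**
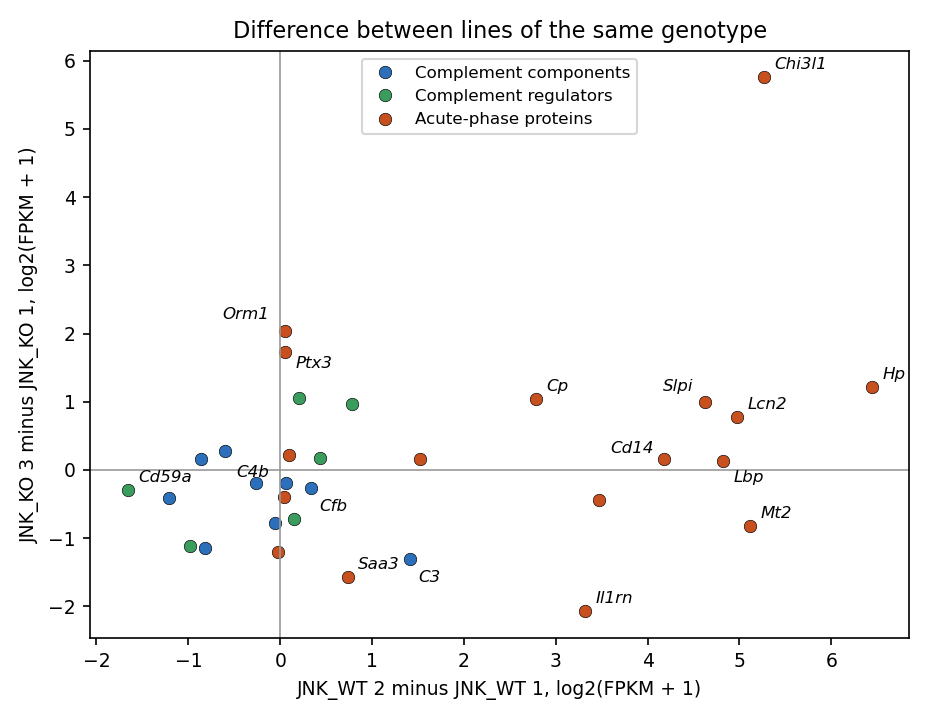
Difference in log2(FPKM + 1) between the 2 lines of each genotype, JNK_WT 2 minus JNK_WT 1 on the x axis and JNK_KO 3 minus JNK_KO 1 on the y axis, for each tested complement and acute-phase gene. Acute-phase genes reached far to the right, with Hp farthest, whereas C3, at 1.41, was the farthest right of the complement genes.

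The remaining complement genes were mostly not expressed. Of 28 activation components other than the members, 9 were listed at 0 throughout, C1qa, C1qb and C1qc among them, and 21 stayed below 1 FPKM in every line. The 6 tested had a median log2 difference of 0.72, beside 0.01 for all tested genes, and with all genes kept the median of the list was 0.04. Unadjusted p was below 0.05 and higher in JNK_KO for 2 and lower for 0, beside 4.75% and 2.89% of all tested genes. Of the 19 above 0, groups were apart with JNK_KO higher for 8 and lower for 1, beside 18.4% and 13.9% of all genes above 0. C1s, a protease of the C1 complex that cleaves C4, was at 3.66 and 3.48 FPKM in JNK_WT and 43.4 and 24.8 FPKM in JNK_KO, a log2 difference of 2.89 (SE 0.37, limma adjusted p = 0.189). A paralog and an antisense gene share 45.0% of its 40-base words. Colec12, a scavenger-receptor collectin, had a log2 difference of 1.32 with groups apart, and C1ra, the partner protease of C1s, had one of 1.04 with groups just apart. Cfp, which encodes properdin, the stabilizer of the alternative-route enzyme, had a log2 difference of 0.39. The limma adjusted p-values of these 3 genes were 0.478, 0.827 and 0.934.

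Of 16 further complement regulators, 9 stayed below 1 FPKM and 5 were tested. Of these 5, Clu and Csmd1 had an unadjusted p below 0.05, both higher in JNK_KO, beside 4.75% of all tested genes. Csmd1 reached 1 FPKM only in JNK_KO and had to differ in order to be tested, so its p-value is no separate support. The median log2 difference of the 5 was 0.80, and 0.21 with all genes kept. Groups were apart with JNK_KO higher for 6 of 14 genes above 0 and lower for 0, beside 18.4% and 13.9% of all genes above 0. Clu, which encodes clusterin, an inhibitor of pore assembly and a secreted chaperone, was at 112 and 129 FPKM in JNK_WT and 418 and 870 FPKM in JNK_KO. Both JNK_KO lines were more than 3-fold above both JNK_WT lines (log2 difference 2.32, SE 0.42, limma adjusted p = 0.281). Csmd1, a membrane protein with complement-control domains, was at 0.0221 and 0.130 FPKM in JNK_WT and 8.56 and 4.82 FPKM in JNK_KO, a log2 difference of 2.79 (SE 0.38, limma adjusted p = 0.191). Susd4 and Cr1l had log2 differences of 0.80 and 0.39, with limma adjusted p-values of 0.878 and 0.933. Of 9 complement receptors, 7 stayed below 1 FPKM and only Itgb2, the beta-2 integrin chain of leukocytes, was tested. It was at 8.75 FPKM in JNK_WT line 1 and at 0.460 to 1.14 FPKM in the other lines (log2 difference -0.82, limma adjusted p = 0.985).

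Of 31 further acute-phase genes, 3 were at 0 throughout, among them Crp and Apcs, the short pentraxins of the liver response, and 14 stayed below 1 FPKM. Groups were apart with JNK_KO higher for 16 of the 28 above 0 and lower for 1, beside 18.4% and 13.9% of all genes above 0. Of the 13 tested, 5 had an unadjusted p below 0.05, all higher in JNK_KO, beside 4.75% of all tested genes. Of these 5, 4 (Serpina3g, Orm1, Saa1 and Saa2) were the genes of the list that reached 1 FPKM only in JNK_KO and had to differ in order to be tested, which leaves Steap4 alone. The median log2 difference of the 13 was 1.93, and 0.94 with all genes kept. Serpina3g, a serine protease inhibitor of the antichymotrypsin family, was at 0.0682 and 0.0476 FPKM in JNK_WT and 26.1 and 10.8 FPKM in JNK_KO, a log2 difference of 4.08 (SE 0.49, limma adjusted p = 0.175). Like Saa3, it was near 0 in JNK_WT and higher in JNK_KO line 1 than in line 3. Orm1, a plasma glycoprotein of the lipocalin family, was at 0.0895 and 0.126 FPKM in JNK_WT and 5.05 and 23.8 FPKM in JNK_KO, and so had the order of Ptx3 across lines (log2 difference 3.47, SE 0.74, limma adjusted p = 0.359). Its copies Orm2 and Orm3 share 24.2% of its 40-base words. Steap4, a metalloreductase induced by inflammation, and Il1rn, the interleukin-1 receptor antagonist, had log2 differences of 2.94 and 2.89, with limma adjusted p-values of 0.326 and 0.753.

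**Figure D4:**
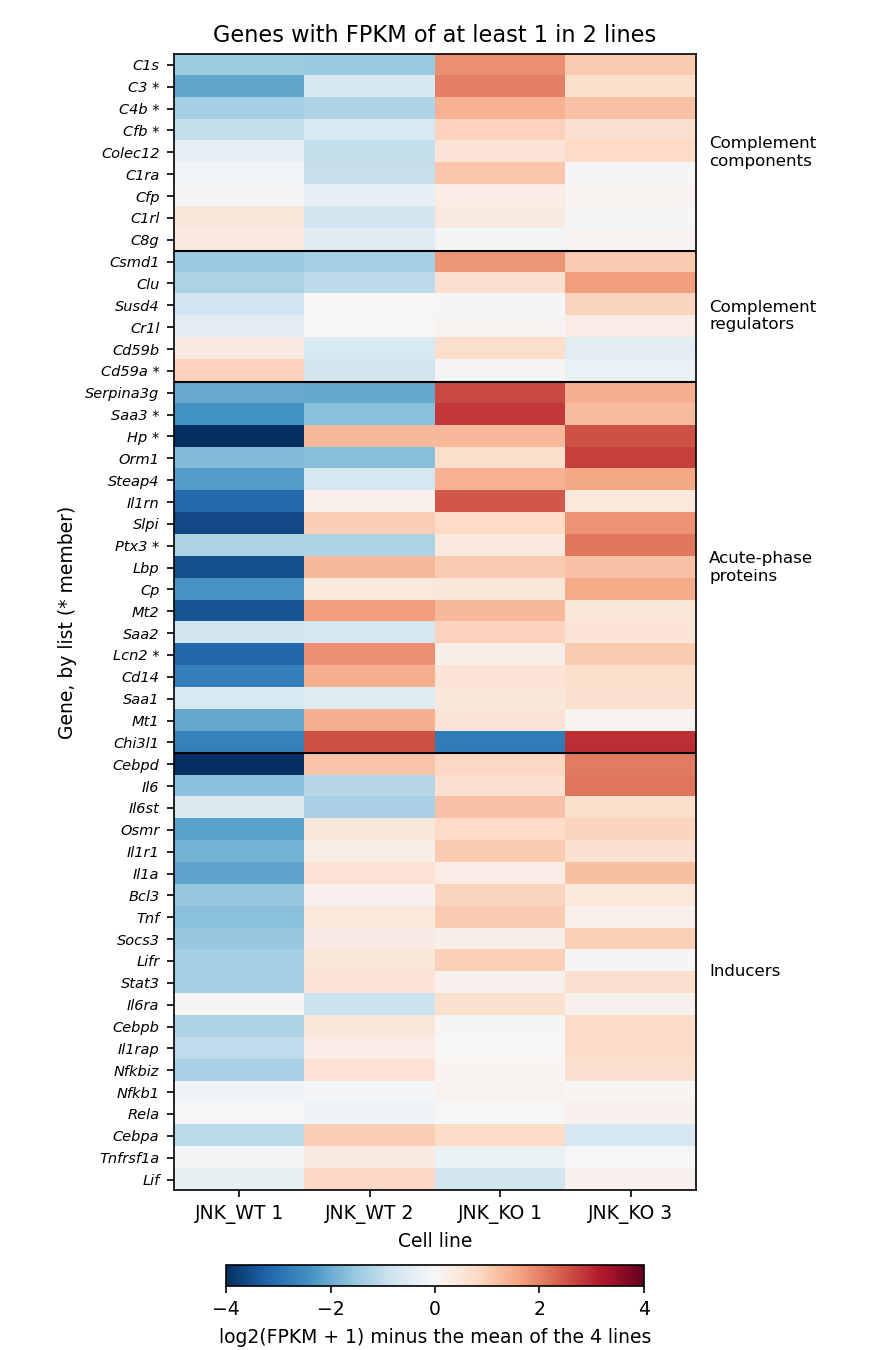
Heat map of tested complement and acute-phase genes and of their inducers in the 4 lines. Color gives log2(FPKM + 1) minus the mean of the 4 lines, limited to 4 in either direction, asterisks mark the members, and genes of each list are ordered by their difference between genotypes. The JNK_KO columns were warm for the leading complement genes, and JNK_WT 1 was cold for most acute-phase genes.

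The cytokines, receptors and transcription factors that induce acute-phase genes were mostly expressed, with 20 of 22 tested. Their median log2 difference was 0.86. Of the 21 above 0, groups were apart with JNK_KO higher for 7 and lower for 0, beside 18.4% and 13.9% of all genes above 0. Il6 and Il6st had an unadjusted p below 0.05, both higher in JNK_KO, beside 4.75% of all tested genes. Il6, which reached 1 FPKM only in JNK_KO and had to differ in order to be tested, is the principal inducing cytokine. It was listed at 0 in JNK_WT line 1, at 0.436 FPKM in JNK_WT line 2 and at 3.86 and 13.0 FPKM in JNK_KO lines 1 and 3 (log2 difference 2.78, SE 0.61, limma adjusted p = 0.378). Il6st, the gp130 receptor chain shared by cytokines of the IL-6 family, was at 46.3 and 27.9 FPKM in JNK_WT and 160.2 and 114.8 FPKM in JNK_KO. Both JNK_KO lines were more than 2-fold above both JNK_WT lines (log2 difference 1.89, SE 0.35, limma adjusted p = 0.299). Cebpd, a C/EBP factor of the acute-phase response, was at 0.915, 68.3, 55.3 and 134 FPKM in JNK_WT 1, JNK_WT 2, JNK_KO 1 and JNK_KO 3, low in JNK_WT line 1 alone, as Hp and Lcn2 were. Osmr, the oncostatin M receptor chain, was at 1.85, 16.2, 20.9 and 22.5 FPKM in the same order. The limma adjusted p-values of Cebpd and Osmr were 0.870 and 0.827. The rule used above for JNK_WT line 1 was met by 6 of the 20 tested inducers.

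For each tested member, the genes with the most similar profile were found by Pearson r over the 4 libraries on the log2 scale, among 4760 genes with a range of at least 1. With 4 points many genes reach a high r, and 28 to 82 genes had r of at least 0.99 with a given member, so these are descriptions without a test. Saa3 was most like Icam1, an adhesion molecule that binds leukocyte integrins, then Fbn1 and Tmem241. Icam1 was at 0.770, 1.56, 32.3 and 13.6 FPKM in JNK_WT 1, JNK_WT 2, JNK_KO 1 and JNK_KO 3. C3 was most like Gm14453, Slco3a1 and Adamts9, and C4b was most like Sirpa, Snord98 and Stc1. Cfb was most like Id1, an inhibitor of basic helix-loop-helix factors, then S100a8 and Gm13251. Ptx3 was most like Pfkfb3, Snora44 and PVT1_3. Hp was most like Nab1, Gnao1 and Tmem68, Lcn2 was most like Grhl3, Arl8b and Adamts7, and Cd59a was most like Sorcs2, Arl6ip1 and Eng. No gene appeared for 2 members, but only the 3 nearest genes of each are named. Among the members themselves, r ranged from -0.984 (Cd59a with Lcn2) to 0.989 (Cfb with Saa3).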

How the data were processed

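RNA from 4 mouse mammary tumor cell lines was sequenced as single-end reads of 40 bases. Per the labels and the study's methods, the authors trimmed reads with Trimmomatic, sampled them with seqtk, aligned them to GRCm38 with TopHat2 2.0.14 and Bowtie2, and computed FPKM with Cufflinks 2.2.1. Gene annotation, strandedness and further scaling are not given in the sources used here. The deposited FPKM values are scaled by transcript length and library total, so read counts, and intervals that need them, cannot be had.

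Of 38741 rows, 27 with date-like symbols and 1 without a value were left out. Genes with FPKM of at least 1 in at least 2 libraries (12998) were tested on log2(FPKM + 1), which understates changes of low genes, with limma 3.58.1 in R 4.3.3 (moderated variance with an intensity trend, Benjamini-Hochberg adjustment). Unadjusted p-values quoted come from the same fit. A call required an adjusted p below 0.05 and an absolute log2 difference above 0.75. Groups were taken from the sample labels. With each line 1 library, p-values measure the spread between lines, and no batch was given. In data simulated on the same 12998 genes for JNK_KO against JNK_WT, the test recovered 62.9% of 200 genes given a true log2 change of 4 and 0.0% of those given one of 2. At a change of 4, a mean of 3.8 unchanged genes was called as well. Each gene's spread between lines of a genotype was taken as its true spread, so these shares hold for that setting only.

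Named genes were the members, the targeted genes, the 4 further tested genes of each list with the largest absolute difference, paralogs and C2, and the 3 genes most correlated with each tested member. Slpi, Lbp, Cp and Krt14 were added after their values were seen. Members and lists were chosen with earlier results of these data known. Shared 40-base words and positions came from GENCODE M21 transcripts on GRCm38, and upstream windows from RefSeq. Of the list symbols, 5 were matched through synonyms. Alternatives tried were other pseudocounts, filters, scalings and variance models, and leaving out each line.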

Additional observations from a re-analysis of the deposited data

How the results depend on the processing

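No member was called under any alternative run, and neither were the other complement and acute-phase genes or Mapk8, Mapk9 and Trp53. Over all genes the count called by limma was 0, but lowering the pseudocount to 0.1 gave 10 and to 0.5 gave 14, dropping the trend in variance gave 14, and an adjusted p below 0.1 gave 25. The cause was not tested. Members with an unadjusted p below 0.05 numbered 5, 2 when a mean FPKM of at least 5 was required, since fewer genes were then tested, and 3 to 6 with 1 line left out (3 without JNK_WT line 1). Where a genotype was left with 1 line, that line was assumed to vary like the others. The 7 members apart between genotypes were 7 after upper quartile or quantile scaling, settings chosen after seeing the data. With 1 line left out, also chosen then, the count was 7 to 8. It could not fall there, because groups that are apart stay apart when a line is removed. Of 127 values of members and targeted genes under alternatives, 125 kept their direction. Other filters and variance models leave the log2 difference of a gene as it was, so those values could not change direction. Without JNK_WT line 1, Cd59a had a log2 difference of 0.62 and Lcn2 one of -1.17, both reversed. Over the 4 fits with 1 line left out, Cd59a ranged from -1.04 to 0.62 and Lcn2 from -1.17 to 3.81.

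No paired analysis was possible because replicate number 1 is all that JNK_WT and JNK_KO have in common. The adjusted p under settings that kept all lines ranged from 0.436 to 0.598 for C3, 0.112 to 0.437 for C4b, 0.276 to 0.613 for Cfb, 0.215 to 0.486 for Saa3 and 0.377 to 0.629 for Ptx3 by limma, so none crossed the threshold. Without read counts, values below 1 FPKM have no stated precision, and with 2 lines a genotype the spread between lines limits every comparison.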
